A study of Mus musculus with 12 samples.

Results

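Transcript levels of 9 genes that act between a Notch ligand and the transcription it sets off were followed in sorted mouse fetal liver cells. They were Ncstn, Psen2 and Aph1a, which encode subunits of gamma-secretase, the metalloproteases Adam10 and Adam17, the endocytic regulators Mib1 and Numb, and the nuclear factors Rbpj and Maml1. The genes were chosen by their place in the pathway, and each was matched by its Ensembl identifier, as named in GENCODE for GRCm38. All 9 were found among the 32285 identifiers counted in hematopoietic stem cells (HSCs) and among the 56980 counted in macrophages, and all 9 passed the filter on low counts in both.

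Bulk RNA sequencing was done on cells sorted from E14.5 fetal livers, in 4 groups of 3 libraries. HSCs were from Vav-Cre positive Jag1 f/f and Vav-Cre negative Jag1 f/f embryos on C57BL/6, with 2000 cells per library sorted as live CD45+ cells that lacked lineage markers and CD48 and carried cKit, Sca1 and CD150. Macrophages were 1000 to 3000 CD169+ cells per library, from Vav-Cre positive and Vav-Cre negative Jag1 f/f embryos whose strain the labels do not give. Every embryo carried floxed Jag1 alleles, which code for the Notch ligand Jagged1, and the HSC labels also call the Cre negative embryos WT and the Cre positive ones mutant. The Vav promoter drives Cre in blood cells and is also known to act in some endothelial cells, so that the sorted cells need not be the only recombined cells of the liver. Nothing in the labels ties a library to an embryo of its own, and p-values therefore measure the spread between libraries, which may be technical.

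In Notch signalling, a ligand on a sending cell binds a receptor on its neighbour. Mib1, a ubiquitin ligase, lets the sending cell pull on the ligand by endocytosis, and this opens the receptor to cleavage outside the membrane by Adam10. Gamma-secretase, whose subunits nicastrin (Ncstn), presenilin, Aph1 and Psenen are needed together, then cuts within the membrane, and the freed intracellular domain joins the DNA-binding protein Rbpj and the co-activator Maml1 on target genes. Numb works against the pathway by promoting endocytosis of the receptor. In the fetal liver and its vessels the pathway is known for its part in the fate of blood and endothelial cells.

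The promoters of the 4 genes whose HSC groups did not overlap are shown first, chosen by those values, to let their start regions be compared. Each runs from 250 bases before to 50 after a RefSeq transcription start in GRCm38.p6, 5′ to 3′ on the gene's own strand, and capitals mark the core of the Rbpj binding site, TGGGAA on either strand (TTCCCA on the other). The Ncstn window is chr1:172082700-172082999 on the minus strand and that of Aph1a is chr3:95893671-95893970 on the plus strand. The Adam10 window is chr9:70678732-70679031 on the plus strand and that of Numb is chr12:83921885-83922184 on the minus strand.
Ncstn: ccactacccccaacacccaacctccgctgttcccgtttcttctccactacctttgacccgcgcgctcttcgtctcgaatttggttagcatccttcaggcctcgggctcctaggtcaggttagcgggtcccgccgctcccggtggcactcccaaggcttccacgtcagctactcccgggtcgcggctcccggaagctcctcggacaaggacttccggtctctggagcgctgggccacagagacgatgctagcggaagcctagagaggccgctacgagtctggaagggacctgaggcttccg
Aph1a: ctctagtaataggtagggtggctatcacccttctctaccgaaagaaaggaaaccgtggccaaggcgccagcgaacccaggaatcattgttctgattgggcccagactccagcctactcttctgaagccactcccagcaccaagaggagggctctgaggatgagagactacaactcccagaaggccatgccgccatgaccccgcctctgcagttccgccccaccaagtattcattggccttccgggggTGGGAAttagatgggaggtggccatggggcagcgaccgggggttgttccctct
Adam10: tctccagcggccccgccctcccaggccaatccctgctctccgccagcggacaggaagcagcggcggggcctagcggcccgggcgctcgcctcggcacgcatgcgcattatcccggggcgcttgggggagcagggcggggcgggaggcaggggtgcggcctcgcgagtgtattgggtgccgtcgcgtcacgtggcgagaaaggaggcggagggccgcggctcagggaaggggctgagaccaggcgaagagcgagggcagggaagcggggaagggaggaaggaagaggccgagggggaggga
Numb: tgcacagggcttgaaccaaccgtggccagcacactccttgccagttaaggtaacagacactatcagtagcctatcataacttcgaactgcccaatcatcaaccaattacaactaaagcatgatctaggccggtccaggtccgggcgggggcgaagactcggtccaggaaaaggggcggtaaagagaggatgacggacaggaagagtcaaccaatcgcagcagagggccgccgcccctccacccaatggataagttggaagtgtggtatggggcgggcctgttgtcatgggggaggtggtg
Of the 9 genes, 8 had a promoter in the RefSeq table, the exception being Mib1. The Rbpj core was found in 2 of these 8, once in Aph1a, starting at position -3 from the transcription start, and at 2 places in Rbpj itself, at -149 and -65. Over all 32841 promoters of the table, 25.6% held the core. The RefSeq start used for Rbpj lies 124194 bases inside the outermost start of the GENCODE gene, and that of Psen2 7138 bases inside, while the others lie within 48 bases. In Aph1a the core lies within the longer site GTGGGAA, held by 6.38% of all promoters. All 8 windows exceeded the median GC content of 52.7% and the median of 7 CpG dinucleotides over all promoters, and Adam10 was the richest with 73.3% GC and 32 CpGs. Ncstn held 4 copies of the ETS core CGGAAG, present in 16.9% of all promoters, and no GC box (GGGCGG, in 35.7% of all). Numb held 4 GC boxes and 4 CCAAT boxes (CCAAT, in 37.4% of all). All motifs were searched on both strands. A match describes letters in the window and shows no binding.

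The HSC libraries held 51982064, 68448437 and 73669941 counted reads under the Cre positive label and 58235222, 77463770 and 60088545 under the Cre negative label. The Cre positive macrophage libraries were shallower, with 2602934, 5237505 and 5366990 reads, than the Cre negative ones with 17230019, 24590240 and 24658205. Jag1 had 0, 10.6 and 6.79 CPM (read counts scaled to library size by trimmed means) in Cre positive macrophages and 52.6, 21.1 and 26.3 CPM in Cre negative macrophages, so those groups did not overlap. The log2 fold change was -2.51 with SE 1.42 and an unadjusted edgeR p of 0.0946. Of all macrophage genes, 11.8% were lower without overlap. In HSCs it had 10.52, 0 and 19.5 CPM in libraries labelled Cre positive and 6.53, 6.87 and 1.16 CPM in those labelled Cre negative. There, 2 of 3 libraries labelled Cre positive lay above every library labelled Cre negative, and the other held no reads. The groups overlapped, with a log2 fold change of 1.04 (SE 1.99, unadjusted edgeR p 0.615). Jag1 thus did not bear the HSC labels out and did not show them wrong. The HSC groups are named as labelled throughout. Counts were summed over the gene, so reads from exons outside the deleted part are included.

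Markers of other cells were present in both sorts. In HSC libraries, 10 sinusoidal endothelial markers took 0.618%, 0.545% and 0.719% of reads under the Cre positive label and 1.12%, 0.775% and 0.540% under the Cre negative label. The 11 HSC markers took 0.185%, 0.188% and 0.137% of reads under the Cre positive label and 0.0880%, 0.146% and 0.213% under the Cre negative label. In the macrophage sort, the same endothelial markers took 1.38%, 1.62% and 1.32% of reads in Cre positive libraries and 1.58%, 0.785% and 0.782% in Cre negative ones. The 12 macrophage markers took 0.209%, 0.228% and 0.351% in Cre positive libraries and 0.173%, 0.471% and 0.422% in Cre negative ones. By mean, 11 of the 12 were lower in Cre positive macrophages (median log2 fold change -1.07, with 1 at an unadjusted edgeR p under 0.05), the exception being Mrc1, the mannose receptor, with 1406, 1654 and 1281 CPM in Cre positive and 1286, 1174 and 1353 CPM in Cre negative libraries. In HSCs under the Cre positive label, 7 of the 10 endothelial markers (median -0.24) and 6 of 7 stellate markers (median -1.22) were lower, each list with 2 genes at an unadjusted edgeR p under 0.05 and none past the adjusted threshold. No endothelial, macrophage or HSC marker was at 0 in all libraries of a sort, and endothelial reads exceeded those of the sorted cell type's own markers in all 12 libraries. Adgre1 (F4/80), a macrophage receptor, set the first Cre negative macrophage library apart, with 60.1, 60.2 and 70.8 CPM in Cre positive libraries and 22.3, 403 and 375 CPM in Cre negative ones. That library also had the largest summed share of the 8 hepatoblast markers, with 0.281% of reads, against 0.0656%, 0.0381% and 0.0519% in Cre positive libraries and 0.0303% and 0.0335% in the other Cre negative ones. Alb, at 1707 CPM there, made up most of it, and Ttr, Apoa1, Rbp4 and Fgb were also highest in that library. Apoa2 and Dlk1 were not, and Afp, at 20.2 CPM, was lower there than in any other macrophage library. Levels below are therefore of the sorted population, in which fewer cells of a type and less RNA per cell cannot be told apart.

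None of the 9 genes passed an adjusted p of 0.05 in either sort by edgeR's quasi-likelihood test, with p-values adjusted by Benjamini-Hochberg over all genes tested. The background was the same, with 0% of 13962 genes called in HSCs and 0% of 17806 in macrophages. At an unadjusted p under 0.05, edgeR gave 892 genes in HSCs (6.39%) and 965 in macrophages (5.42%), while DESeq2 called 133 and 61 genes after adjustment, with 0 of the 9 among them in either sort. In HSCs, 7 of the 9 had a lower mean under the Cre positive label, and their median log2 fold change was -0.52, beside -0.0050 over all genes. The groups did not overlap for 4 of them, Ncstn, Aph1a, Adam10 and Numb, all lower under the Cre positive label, where 9.33% of all genes were lower without overlap and 15.7% did not overlap in either direction. In macrophages, 6 of the 9 had a higher mean in Cre positive libraries, with a median log2 fold change of 0.19 beside -0.16 over all genes. There Numb alone of the 9 had groups that did not overlap, and it was higher, as were 2.27% of all genes without overlap, beside 14.1% without overlap in either direction. Other scalings moved the median of all macrophage genes to between -0.0037 and 0.049 and the median of the 9 to between 0.32 and 0.38.

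**Figure D1:**
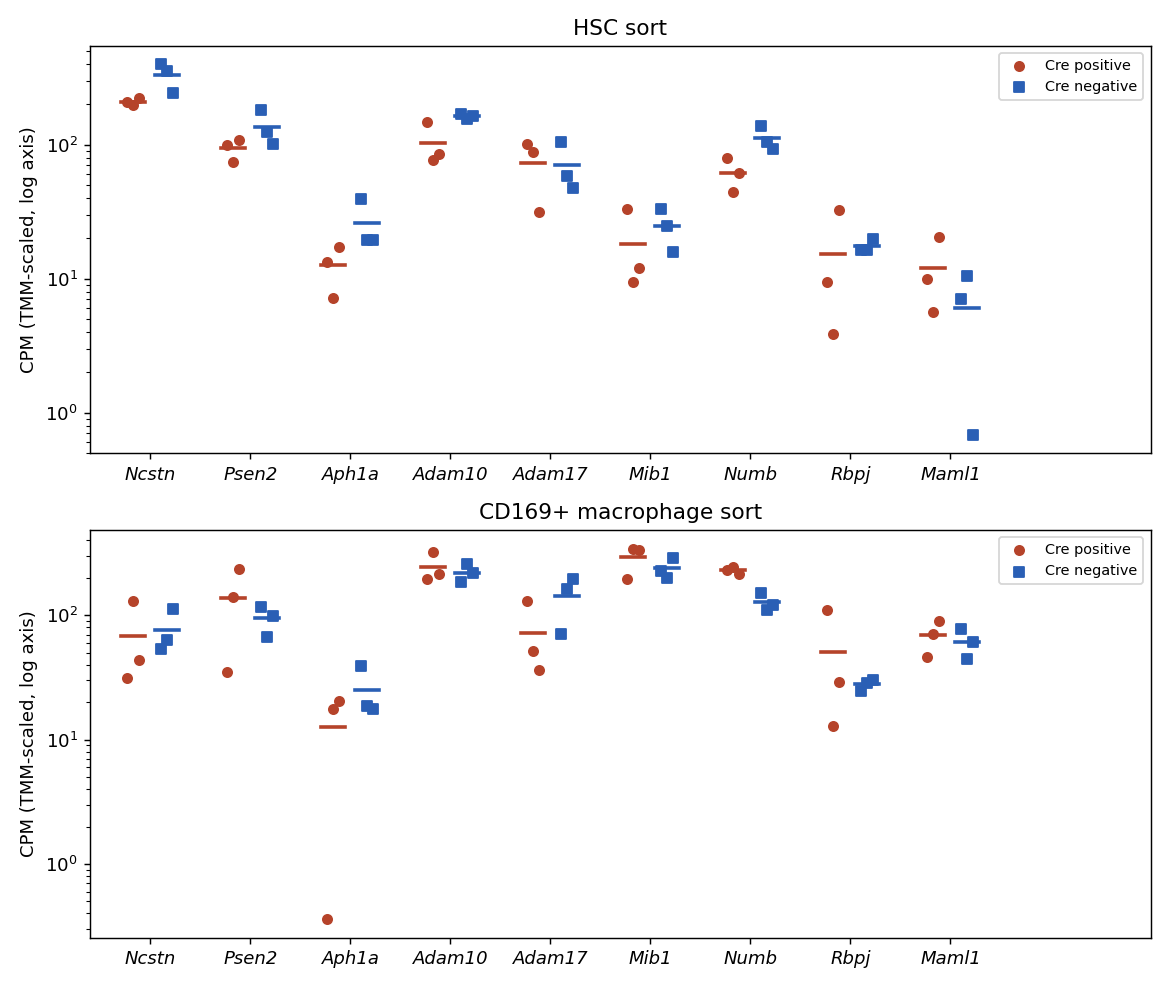
CPM (scaled by trimmed means, log axis) of the 9 genes in every library of the HSC sort and of the CD169+ macrophage sort, with Cre positive libraries as red circles, Cre negative libraries as blue squares and a bar at each mean (n = 3). Ncstn, Aph1a, Adam10 and Numb lie lower without overlap in HSC libraries labelled Cre positive, and Numb lies higher without overlap in Cre positive macrophages.

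The subunit genes Ncstn, Psen2 and Aph1a each had a lower mean in HSCs under the Cre positive label. Ncstn (ENSMUSG00000003458, chr1:172066013-172082795 in GRCm38), the substrate-binding subunit, had 207, 199 and 221 CPM in HSC libraries labelled Cre positive and 396, 357 and 244 CPM in those labelled Cre negative. The first 3 values lay close together, and the lowest Cre negative library stood just above them. The means were 209 ± 11.2 and 332 ± 79.0 CPM (SD, n = 3 each), with a log2 fold change of -0.67 with SE 0.22 and a 95% interval of -1.19 to -0.15. By edgeR the unadjusted p was 0.0178, at rank 351 of 13962 genes tested. The adjusted p was 0.689, the lowest of any gene in that comparison but shared with the genes ranked above Ncstn and with some ranked below it. Without the first Cre negative library, the one with the most endothelial reads, the log2 fold change was -0.53 with an unadjusted edgeR p of 0.0669. The parts of endothelial and stellate RNA, whose markers were also mostly lower under the Cre positive label, were not tested. In macrophages Ncstn had 31.3, 131 and 43.3 CPM in Cre positive libraries and 53.1, 63.1 and 112 CPM in Cre negative ones. The groups overlapped throughout, and the log2 fold change of -0.15 (SE 0.60, interval -1.42 to 1.12) was positive under several settings, at 0.028 with DESeq2 size factors, 0.054 with library totals and 0.22 with all macrophage libraries thinned to 2602934 reads.

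Psen2 (ENSMUSG00000010609, chr1:180227004-180263438), a presenilin and so a catalytic subunit, had 100.2, 74.5 and 108 CPM in HSC libraries labelled Cre positive and 180.3, 125 and 101 CPM in those labelled Cre negative. The third library labelled Cre positive lay above the third labelled Cre negative, so the groups overlapped. The log2 fold change was -0.52 with SE 0.29 (interval -1.20 to 0.15), and edgeR gave an unadjusted p of 0.112 and an adjusted p of 0.859. In macrophages Psen2 had 34.9, 140.0 and 235 CPM in Cre positive libraries, which spread widely around the 116, 67.2 and 99.0 CPM of the Cre negative ones. Its log2 fold change there was 0.54 with SE 0.55 (interval -0.63 to 1.70), and -0.18 without the third Cre positive library.

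Aph1a (ENSMUSG00000015750, chr3:95893969-95898288), a scaffold subunit, had 13.3, 7.14 and 17.2 CPM in HSC libraries labelled Cre positive and 39.4, 19.5 and 19.4 CPM in those labelled Cre negative. The groups stood apart by a small margin, since the highest Cre positive library and the lower Cre negative pair were close. The log2 fold change was -1.06 with SE 0.60 (interval -2.45 to 0.33), with an unadjusted p of 0.118 and an adjusted p of 0.867 by edgeR. In macrophages Aph1a had 0.360, 17.5 and 20.4 CPM in Cre positive libraries and 38.9, 18.5 and 17.7 CPM in Cre negative ones. The first Cre positive value was 1 read in the shallowest library, where 3 reads correspond to 1.15 CPM, and the others overlapped. The log2 fold change was -0.97 with SE 1.33 and, without that library, -0.46. Exons of Aph1a share 445 bases, 12.9% of their length, with Car14 on the opposite strand, and reads from the shared part cannot be assigned because the library kit does not mark strand.

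Adam10 and Adam17 encode metalloproteases that cut proteins at the cell surface. Adam10 (ENSMUSG00000054693, chr9:70678997-70780229), the protease of ligand-driven receptor cleavage, had 147, 76.6 and 85.2 CPM in HSC libraries labelled Cre positive and 168, 156 and 162 CPM in those labelled Cre negative. The Cre negative libraries were nearly equal, and all 3 Cre positive ones lay below them, the first only slightly. The means were 103 ± 38.5 and 162 ± 6.17 CPM, a log2 fold change of -0.66 with SE 0.29 (interval -1.33 to 0.01), with an unadjusted p of 0.0540 and an adjusted p of 0.786 by edgeR. Without the first Cre positive library the log2 fold change was -1.01, and without the second it was -0.48. In macrophages Adam10 had 196, 321 and 214 CPM in Cre positive libraries and 183, 259 and 218 CPM in Cre negative ones. These overlapped, and the log2 fold change of 0.15 (SE 0.35, interval -0.60 to 0.89) lay within the spread.

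Adam17 (ENSMUSG00000052593, chr12:21323509-21373632), better known as the protease that releases tumour necrosis factor and also able to cut Notch, had 100.2, 87.8 and 31.7 CPM in HSC libraries labelled Cre positive and 104.5, 58.6 and 47.6 CPM in those labelled Cre negative. The groups overlapped over most of their ranges, and the log2 fold change was 0.06 with SE 0.49 (interval -1.07 to 1.19), turning to -0.042 with limma-voom. In macrophages it had 130, 51.1 and 36.0 CPM in Cre positive libraries and 70.2, 162 and 197 CPM in Cre negative ones. The first library of each group lay inside the range of the other group, while the remaining libraries were apart. The log2 fold change was -0.99 with SE 0.54 (interval -2.14 to 0.16), with an unadjusted p of 0.0867 and an adjusted p of 1 by edgeR. It was -1.30 without the first Cre negative library, the one low in Adgre1, and -1.78 without the first Cre positive library, at unadjusted edgeR p of 0.0310 and 0.00176 and adjusted p of 0.545 and 0.338. These are the libraries inside the other group's range, so that leaving either out had to widen the difference. With each library left out in turn, the value ranged from -1.78 to -0.70, with unadjusted edgeR p from 0.00176 to 0.292. Within each library, the ratio of Adam10 to Adam17 per kilobase of exon was 2.20, 9.13 and 8.66 in Cre positive macrophages and 3.81, 2.33 and 1.61 in Cre negative ones, which overlapped. In HSCs it was 2.14, 1.27 and 3.92 under the Cre positive label and 2.35, 3.87 and 4.96 under the Cre negative label, which also overlapped.

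Mib1 (ENSMUSG00000024294, chr18:10725548-10818704), which ubiquitinates Notch ligands, had 33.1, 9.43 and 11.95 CPM in HSC libraries labelled Cre positive and 33.1, 24.8 and 15.8 CPM in those labelled Cre negative. The first libraries of the groups were alike and the groups overlapped, with a log2 fold change of -0.44 (SE 0.64, interval -1.92 to 1.04). In macrophages Mib1 had 195, 343 and 338 CPM in Cre positive libraries and 227, 200.2 and 290 CPM in Cre negative ones. The first Cre positive library lay below every Cre negative one and the others above, giving a log2 fold change of 0.29 (SE 0.35, interval -0.45 to 1.03).

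Numb alone of the 9 had groups without overlap in both sorts, and as labelled its differences had opposite signs. The HSC sign rests on labels that Jag1 did not bear out. Of all genes, 9.33% were lower without overlap in HSCs and 2.27% higher without overlap in macrophages. The share of all genes with both was not computed. The pattern was not particular to Numb, since the endothelial marker Tek had it as well. Numb (ENSMUSG00000021224, chr12:83794034-83921934), an endocytic adaptor that antagonises Notch, had 79.4, 44.4 and 61.9 CPM in HSC libraries labelled Cre positive and 139, 105 and 92.5 CPM in those labelled Cre negative. All 3 libraries labelled Cre positive were below all 3 labelled Cre negative. The means were 61.9 ± 17.5 and 112 ± 23.9 CPM, a log2 fold change of -0.86 with SE 0.31 (interval -1.57 to -0.14), with an unadjusted p of 0.0248 and an adjusted p of 0.736 by edgeR. In macrophages Numb had 231, 244 and 214 CPM in Cre positive libraries and 150, 111 and 120 CPM in Cre negative ones. Here all 3 Cre positive libraries were above all 3 Cre negative ones. The means were 230 ± 15.3 and 127 ± 20.1 CPM, a log2 fold change of 0.85 with SE 0.36 (interval 0.09 to 1.61), with an unadjusted p of 0.0298 and an adjusted p of 0.773 by edgeR. The parts of other cells in these differences were not tested.

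The difference of the genotype effects, macrophage minus HSC, was tested as an interaction over all 12 libraries and 20128 genes, of which edgeR called 14 (0.0696%) and none of the 9, while 8.62% had an unadjusted p under 0.05. For Numb it was 1.68 on the log2 scale with SE 0.53, an unadjusted p of 0.00417 and an adjusted p of 0.441 by edgeR. DESeq2, which called 691 genes for this contrast, gave Numb 1.79 with an adjusted p of 0.00439. These values, the DESeq2 call included, take the HSC libraries as labelled. The HSC labels were also exchanged, a choice made after seeing the data because Jag1 did not bear them out. The difference for Numb was then -0.010 with SE 0.52 and an unadjusted edgeR p of 0.985. With the labels as given, under the other settings and with each library left out in turn, the difference for Numb stayed between 1.497 and 1.91, with edgeR adjusted p from 0.240 to 0.822. Leaving out the first Cre negative macrophage library gave Numb a log2 fold change of 0.99 in macrophages, and leaving out the first library labelled Cre negative in HSCs gave -0.68 there. For the other 8 genes the difference ranged from -1.04 for Adam17 to 1.04 for Rbpj, with unadjusted p from 0.121 to 0.979. Of Numb's exons, 166 bases (4.24%) overlap the transcript Gm46367 on the other strand.

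**Figure D2:**
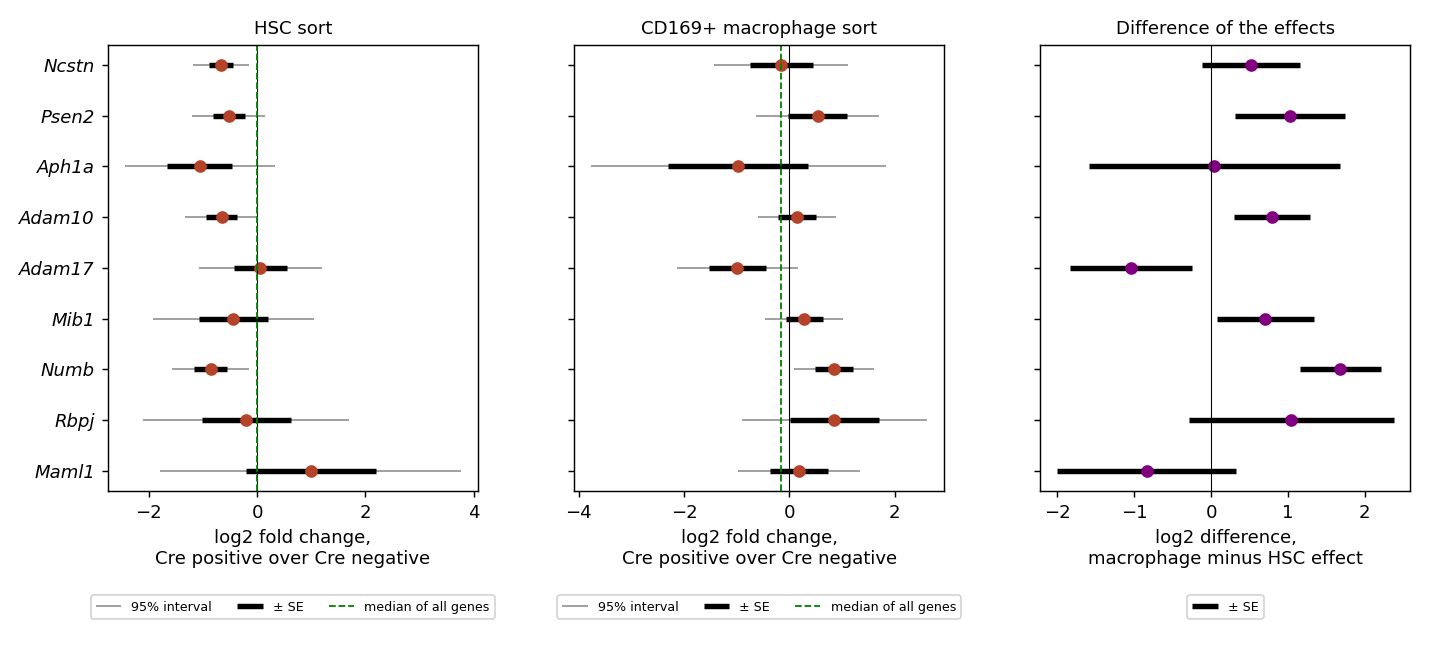
Log2 fold change of Cre positive over Cre negative for the 9 genes in the HSC and CD169+ macrophage sorts, and the difference of these effects (macrophage minus HSC), with SE as thick bars, 95% intervals as thin lines and the median of all genes as a dashed line. Numb is at -0.86 in HSCs and 0.85 in macrophages, with a difference of 1.68. The HSC values and the differences take the HSC labels as given, which Jag1 did not bear out.

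Of the nuclear factors, Rbpj varied widely between libraries of the Cre positive groups. Rbpj (ENSMUSG00000039191, chr5:53466152-53657362), the DNA-binding protein of the pathway, had 9.40, 3.86 and 32.3 CPM in HSC libraries labelled Cre positive and 16.2, 16.3 and 19.8 CPM in those labelled Cre negative. The Cre negative libraries were close together, and the Cre positive ones lay on both sides of them. In macrophages the picture was similar, with 110.1, 12.8 and 29.1 CPM in Cre positive libraries and 24.8, 28.5 and 30.4 CPM in Cre negative ones. The log2 fold changes were -0.20 (SE 0.82, interval -2.10 to 1.71) in HSCs and 0.86 (SE 0.84, interval -0.90 to 2.62) in macrophages, and each changed sign when 1 library was left out, to 0.26 without the second HSC library labelled Cre positive and to -0.48 without the first Cre positive macrophage library. With limma-voom the macrophage value was -0.0082. The annotation holds the processed pseudogenes Rbpj-ps1 and Rbpj-ps3 on chromosomes 4 and 6, so that counts of Rbpj are uncertain to the extent that reads were split between copies.

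Maml1 (ENSMUSG00000050567, chr11:50255634-50292311), a co-activator that binds the Notch and Rbpj complex, had 9.94, 5.62 and 20.3 CPM in HSC libraries labelled Cre positive and 7.01, 10.4 and 0.683 CPM in those labelled Cre negative. The third Cre negative library, with 42 reads, was the lowest, and the groups overlapped with a log2 fold change of 0.99 (SE 1.20, interval -1.79 to 3.77). In macrophages Maml1 had 46.1, 70.3 and 90.7 CPM in Cre positive libraries and 76.8, 44.4 and 61.0 CPM in Cre negative ones. These values intermixed, with a log2 fold change of 0.19 (SE 0.55, interval -0.97 to 1.34).

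The spread between libraries exceeded that of counting in all 4 groups. In HSCs the median coefficient of variation of the 9 genes between 3 libraries was 40.5% under the Cre positive label and 29.9% under the Cre negative label, where counting error alone would give 1.61% and 1.57%. In macrophages the medians were 69.7% in Cre positive and 26.5% in Cre negative libraries, where counting alone would give 6.42% and 2.35%. Depth differed with genotype in macrophages, and its part in the wider spread of the Cre positive group was not tested. Rbpj had the widest spread of the Cre positive groups, at 99.3% in HSCs and 103% in macrophages, beside 11.6% and 10.2% in the Cre negative groups. Numb, by contrast, varied by 6.66% in Cre positive and 15.9% in Cre negative macrophages. Among HSC libraries labelled Cre negative, Adam10 varied least, at 3.80%, and Maml1 most, at 81.7%.

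**Figure D3:**
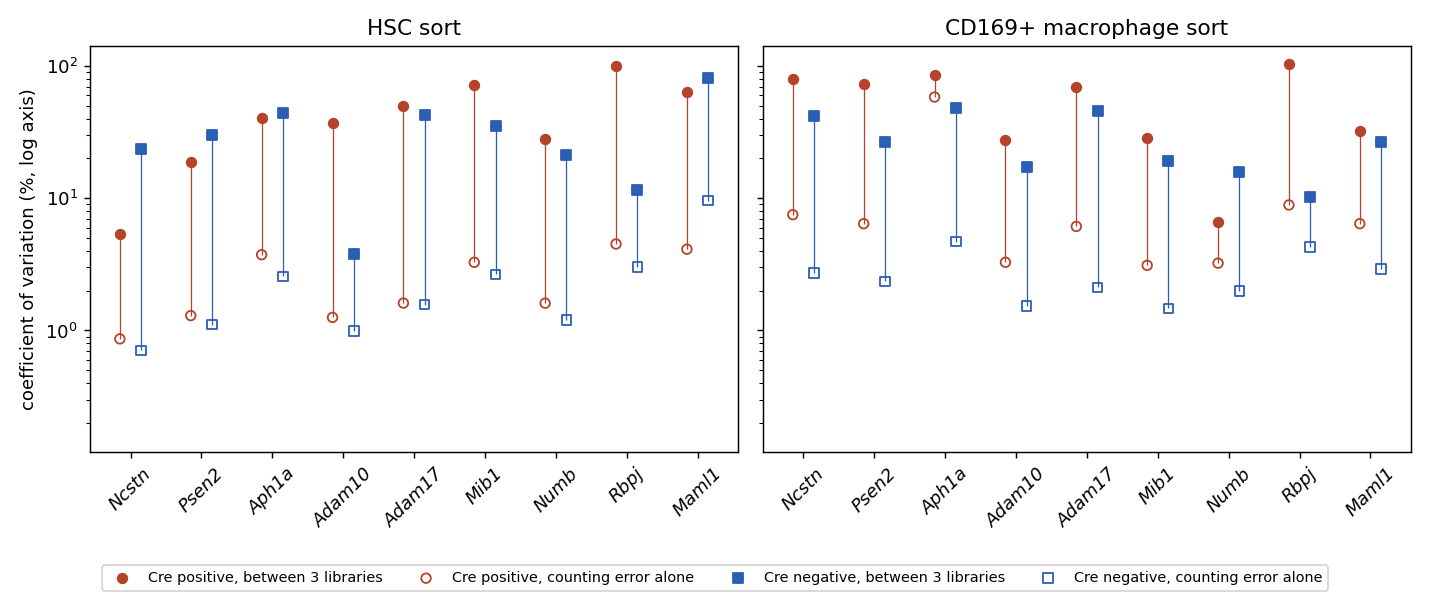
Coefficient of variation (%, log axis) of each of the 9 genes between the 3 libraries of a group (filled) and from counting error alone (open), for Cre positive (red circles) and Cre negative (blue squares) libraries of the HSC and CD169+ macrophage sorts. Between-library values exceed counting error for every gene, and Rbpj reaches 99.3% and 103% in the Cre positive groups.

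Per kilobase of exon, Ncstn was the most abundant of the 9 in HSCs, with a mean of 68.1 CPM per kb over 6 libraries and a range of 50.01 to 99.7 that did not overlap that of the next gene. Adam10 followed with 27.0, Psen2 with 26.5 and Numb with 22.2 CPM per kb, then Adam17 with 10.03 and Aph1a with 5.60. Mib1 with 1.95, Maml1 with 1.63 and Rbpj with 1.28 CPM per kb were lowest, and below Ncstn the ranges of all neighbours overlapped. Within every single HSC library, however, Aph1a stood above Mib1. In macrophages the order began with Adam10 at 47.2 and Numb at 45.5 CPM per kb, followed by Psen2 at 26.6, Mib1 at 24.3 and Ncstn at 18.2. Adam17 at 15.1, Maml1 at 11.7, Aph1a at 5.47 and Rbpj at 3.08 CPM per kb came last, and the ranges of all neighbours overlapped. Within every single macrophage library, Numb stood above Psen2 and Maml1 above Aph1a. The order depends on the gene model: with the longest transcript as the length, 4 of 9 genes kept their place in HSCs and 2 of 9 in macrophages. With that length Ncstn stayed first in HSCs at 89.7 CPM per kb, but its range overlapped that of Psen2, next at 56.9. In macrophages Psen2 then came first at 57.1, above Numb at 50.2, so that Numb no longer stood above Psen2 in every library. The joined exons of Rbpj span 12750 bases and its longest transcript 5485, and for Psen2 these lengths are 4332 and 2020 bases. Levels were not compared between the sorts, whose tables were made separately.

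**Figure D4:**
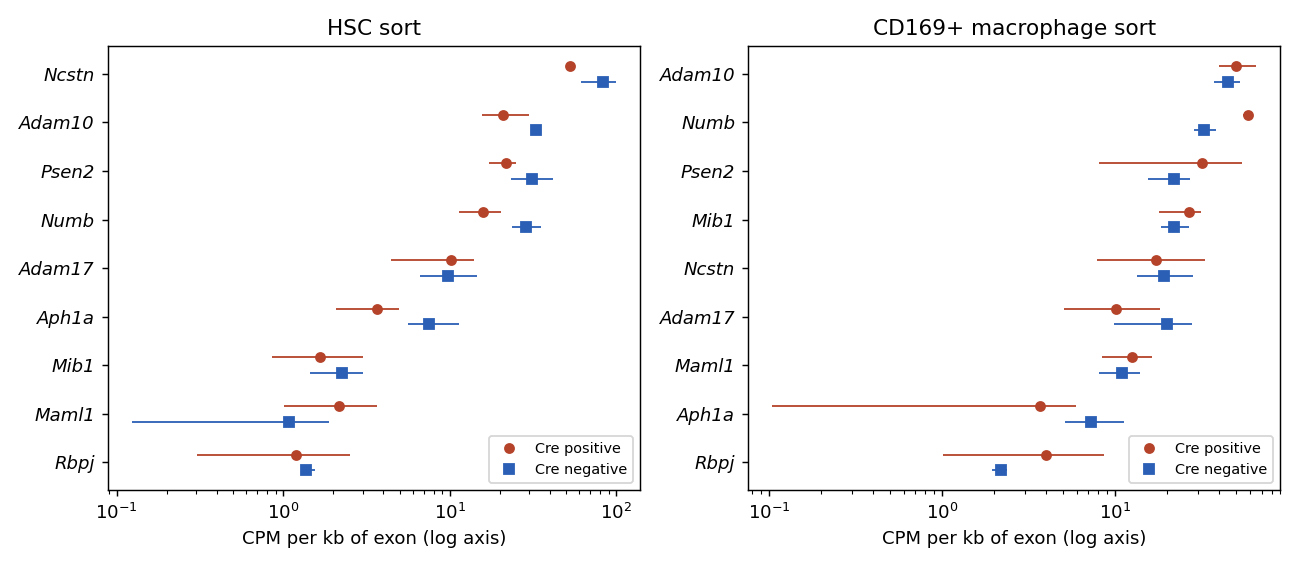
CPM per kb of exon (log axis) of the 9 genes in the HSC and CD169+ macrophage sorts, ordered by the mean of 6 libraries, with points at group means, lines over the range of 3 libraries, Cre positive in red and Cre negative in blue. Ncstn leads in HSCs at 68.1 CPM per kb, and Rbpj is lowest in both sorts, at 1.28 and 3.08.

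The receptors that these genes act on were present in both sorts. In HSCs, Notch1 had 27.7, 37.1 and 98.9 CPM in libraries labelled Cre positive and 41.8, 43.3 and 31.6 CPM in those labelled Cre negative, and Notch4, a mainly endothelial receptor, had 27.7, 29.9 and 98.5 against 30.6, 19.0 and 17.4 CPM. The third library labelled Cre positive was high for both, as it was for Rbpj and Maml1. Notch2 stayed between 3.69 and 10.15 CPM under the Cre positive label and between 2.15 and 9.11 CPM under the Cre negative label, and Notch3 at no more than 2.68 and 3.44 CPM. In macrophages Notch1 had 417, 615 and 641 CPM in Cre positive and 654, 322 and 409 CPM in Cre negative libraries, and Notch4 had 116, 348 and 142 against 217, 113 and 67.2 CPM. The receptor groups overlapped in all these cases. Notch2 ranged from 28.8 to 92.2 CPM in Cre positive and from 41.0 to 107 CPM in Cre negative macrophages, and Notch3 from 2.05 to 8.005 and from 1.45 to 7.29 CPM.

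Beyond the 9 genes, 57 further genes of the same steps were listed, and edgeR called 0 of those tested in either sort. Psenen, the smallest subunit, averaged 79.8 ± 22.7 CPM under the Cre positive label and 61.4 ± 5.58 CPM under the Cre negative label in HSCs. Aph1c, which like Aph1b encodes an alternative scaffold subunit, had 8.59, 5.99 and 22.1 CPM in HSC libraries labelled Cre positive and 14.4, 14.2 and 9.04 CPM in those labelled Cre negative, which overlapped. No library exceeded 9.62 CPM of Aph1b in HSCs or 17.4 CPM of Aph1c in macrophages.

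Regulators of the ADAM proteases had the lowest median of these lists in HSCs, at -0.69, with 7 of 8 tested genes lower and 3 lower without overlap, where 9.33% of all genes were. Tspan14, a tetraspanin that carries Adam10 to the cell surface, had 388, 197 and 234 CPM in HSC libraries labelled Cre positive and 548, 423 and 568 CPM in those labelled Cre negative. The groups were apart, and the log2 fold change was -0.91 with an unadjusted p of 0.0126 and an adjusted p of 0.689 by edgeR. Tspan5, another tetraspanin partner of Adam10, averaged 19.4 ± 10.3 CPM under the Cre positive label and 42.9 ± 10.6 CPM under the Cre negative label (log2 fold change -1.14, unadjusted edgeR p 0.0547). Rhbdf1, one of the iRhoms that carry Adam17 to the surface, averaged 64.9 ± 14.7 and 108 ± 30.1 CPM in these groups (log2 fold change -0.74, unadjusted edgeR p 0.0437). In macrophages 3 of 7 tested regulators were higher and 4 lower, with a median of -0.05. Timp3, an inhibitor of metalloproteases, averaged 99.1 ± 23.8 CPM in Cre positive and 48.0 ± 20.1 CPM in Cre negative macrophages, and Rhbdf1 22.3 ± 9.56 and 52.7 ± 13.5 CPM. Neither passed the test, with unadjusted edgeR p of 0.0678 and 0.123. Tspan33 was low there, at 4.20 ± 6.33 CPM in Cre positive and 7.14 ± 2.49 CPM in Cre negative libraries.

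Endocytic and ubiquitin genes split evenly in HSCs, with 8 of 17 tested genes higher and 9 lower. Fbxw7, the ligase that targets the Notch intracellular domain for degradation, averaged 29.9 ± 8.92 CPM under the Cre positive label and 11.7 ± 6.14 CPM under the Cre negative label, with a log2 fold change of 1.35 and an unadjusted edgeR p of 0.0615. Dtx3l and Dtx2, ligases of the Deltex family, lay on opposite sides, with 37.4 ± 17.8 against 18.1 ± 5.40 CPM for Dtx3l and 8.07 ± 1.27 against 19.3 ± 2.35 CPM for Dtx2. In macrophages 6 of 18 tested genes were higher and 12 lower. Epn2, an endocytic adaptor, averaged 92.9 ± 34.0 CPM in Cre positive and 44.2 ± 6.78 CPM in Cre negative macrophages (log2 fold change 1.07, unadjusted edgeR p 0.0632). Dtx3l averaged 26.9 ± 20.9 and 62.4 ± 32.0 CPM in these groups and Dtx4 5.19 ± 6.66 and 27.7 ± 22.4 CPM.

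Of the receptor-processing genes, Lfng, a glycosyltransferase that modifies Notch and shifts its response to different ligands, stood out in macrophages. It had 7.92, 19.7 and 10.1 CPM in Cre positive libraries and 45.4, 44.2 and 49.6 CPM in Cre negative ones. The groups were well apart, with a log2 fold change of -1.88, SE 0.90, an unadjusted p of 0.0526 and an adjusted p of 0.948 by edgeR. Lower values without overlap were found for 11.8% of all macrophage genes. Its relatives Mfng and Rfng overlapped there, with 32.7 ± 29.2 against 21.3 ± 9.70 CPM and 10.7 ± 18.3 against 4.55 ± 2.69 CPM. In HSCs, Rfng averaged 76.2 ± 22.2 CPM under the Cre positive label and 57.7 ± 12.3 CPM under the Cre negative label. The O-glycosyltransferases Poglut1 and Pofut1 averaged 43.3 ± 25.2 against 61.0 ± 20.3 CPM and 31.8 ± 20.8 against 23.5 ± 2.41 CPM.

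Nuclear co-factors showed 11 of 18 tested genes higher in HSCs under the Cre positive label and 9 of 18 in macrophages, with medians of 0.13 and -0.0012. L3mbtl3, a partner of Rbpj in repression, had 28.6, 17.7 and 85.8 CPM in HSC libraries labelled Cre positive and 16.8, 18.6 and 11.7 CPM in those labelled Cre negative (log2 fold change 1.49, unadjusted edgeR p 0.0483, adjusted p 0.779). The third library labelled Cre positive was high and the groups overlapped. The co-repressor Ncor1 averaged 441 ± 37.8 and 324 ± 59.0 CPM, and the co-activator Ep300 55.2 ± 11.5 and 34.1 ± 0.829 CPM, in these groups. Both were higher without overlap, as were 6.37% of all HSC genes, and neither passed the test. Another 3 of the tested co-factors were lower without overlap, as were 9.33% of all HSC genes. In macrophages the co-repressor Spen averaged 151 ± 80.2 CPM in Cre positive and 230 ± 54.4 CPM in Cre negative libraries, Ctbp2 40.1 ± 21.7 and 62.5 ± 4.53 CPM, and Maml3 68.4 ± 24.0 and 45.7 ± 8.52 CPM.

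**Figure D5:**
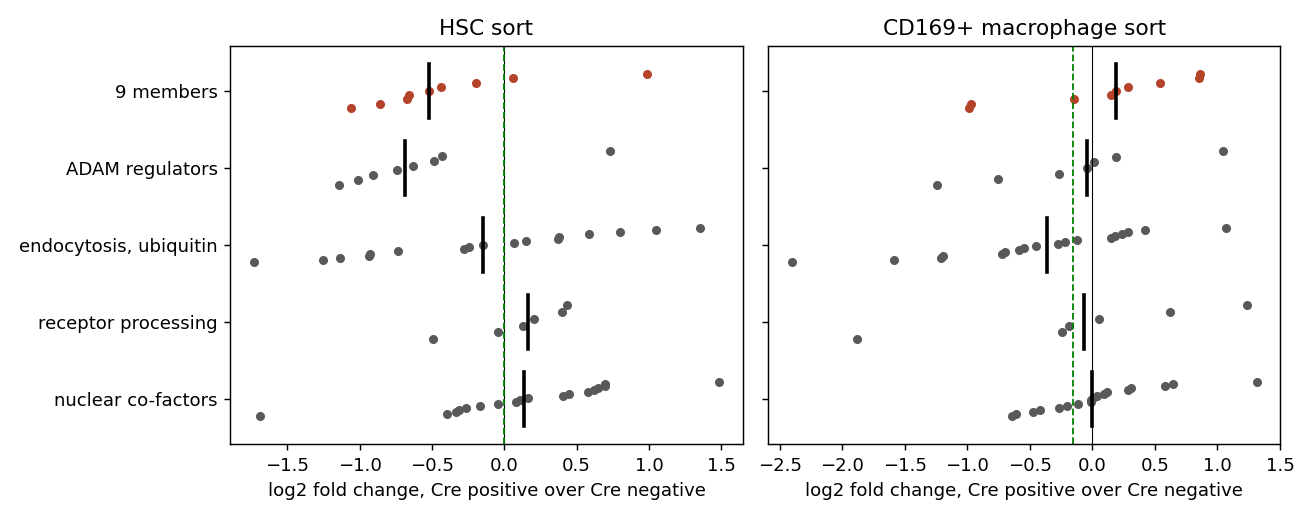
Log2 fold change of Cre positive over Cre negative for each tested gene of the 9 and of 4 lists of further Notch pathway genes (points), with list medians as black bars and the median of all genes as a dashed line. ADAM regulators have a median of -0.69 in HSCs and -0.05 in macrophages.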

How the data were processed

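RNA was measured in 12 libraries, 3 per group, made with a full-length cDNA kit (SMART-Seq v4) that does not mark strand, in 1 batch per sort, per the labels' protocols. For macrophages the labels give 1 ng of input RNA and 11 cycles of amplification. The deposited values are raw counts, whole numbers of reads per gene left unnormalized by the authors, and each sort has its own table. Per the submitters' processing notes, the HSC data were made with STAR 2.7.6a and featureCounts (Subread 2.0.1), and the builds named are GRCm38 and mm10. For macrophages the notes name mm10, with its aligner, counter and annotation not given in the sources used here. Identifiers were named from GENCODE M21, and those it does not name (50 in HSCs and 4855 in macrophages) held 0.000573% to 0.00169% of the reads of HSC libraries and 3.92% to 5.90% of those of macrophage libraries. They stayed in library sizes and tests.

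Libraries were grouped by their titles. Each table was filtered with filterByExpr, scaled by TMM and tested with edgeR 4.0.16 (glmQLFit with robust estimates, glmQLFTest, Cre positive minus Cre negative) in R 4.3.3, with limma 3.58.1 and DESeq2 1.42.0 for alternatives. P-values were adjusted by Benjamini-Hochberg over all genes of a table, with 0.05 as the threshold. Each standard error is the size of the log2 fold change divided by the square root of F. The interaction used all 12 libraries and the 32210 shared identifiers. The scripts' fits were tested on simulated data. Levels per kb use the union of annotated exons. Detection floors, set at 3 reads and covering counting error only, were 0.0387 to 0.0577 CPM for HSCs, 0.559 to 1.15 CPM for Cre positive macrophages and 0.122 to 0.174 CPM for Cre negative macrophages.

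All 9 genes are named with every library's value. Of the further pathway lists, up to 3 tested genes per list and sort with the smallest unadjusted p are named, as values. Of these, 1 gene is not reported here. The 9 genes, the pathway lists and the lists of cell type markers (HSC, macrophage, endothelial, hepatoblast, erythroid and stellate) were chosen with earlier results of these data known. Alternatives were DESeq2, limma-voom, other scalings and filters, equal depth in macrophages, the replicate number as a block, another gene length, exchanged HSC labels, and each library left out in turn.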

Additional observations from a re-analysis of the deposited data

How the results depend on the processing

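No adjusted call for the 9 genes was gained or lost within a sort under any alternative run there or with any library left out. The sole call gained was that of Numb in the interaction with DESeq2 (1.79, adjusted p 0.00439), 1 of 9 beside 691 of the 20128 genes fitted, where edgeR called 14. Counts of calls over all genes depended on the tool: DESeq2 called 133 in HSCs, 61 in macrophages and 691 in the interaction, no filter on low counts gave 21 in macrophages, and library totals gave 8 in the interaction. The same replicate numbers did not deviate together (correlations of -0.00050 to 0.021 in HSCs and 0.0084 to 0.037 in macrophages, with 2 of 6 and 4 of 6 libraries closest to their own number), so the replicate block is an alternative only. With the block, 13 macrophage genes and 96 in the interaction were called, and Adam17 in HSCs turned to -0.022 and the difference of Aph1a between the sorts to -0.28. With limma-voom, Adam17 in HSCs was -0.042, against 0.06, and Rbpj in macrophages -0.0082, against 0.86, and Ncstn in macrophages was 0.028 with DESeq2, 0.028 with its size factors, 0.054 with library totals and 0.22 with libraries thinned to 2602934 reads. With the HSC labels exchanged, chosen after seeing the data, edgeR called 14 genes and none of the 9 in the interaction, and 7 of the 9 differences changed sign: Ncstn to -0.81, Psen2 to -0.0030, Aph1a to -2.05, Adam10 to -0.50, Numb to -0.010, Maml1 to 1.16 and Mib1 to -0.15. With the longest transcript as length, 4 genes in HSCs and 2 in macrophages kept their rank. With 1 library left out, genes called ranged from 1 to 34 in macrophages (34 without the third Cre positive library) and from 6 to 210 in the interaction (6 without the third HSC library labelled Cre positive, 210 without the second Cre positive macrophage library). Genes of the 9 without overlap ranged from 4 to 6 in HSCs and from 1 to 4 in macrophages, with 4 when the first Cre positive library was left out and 2 without the second, the third or the first Cre negative one. Apart from rescaling, such counts can only stay or rise when a library is left out. The matching share over all genes was not computed, so the rise says nothing particular about the 9. Log2 fold changes that changed sign ranged from -0.24 to 0.46 for Adam17 and from -1.40 to 0.26 for Rbpj in HSCs. In macrophages they ranged from -1.05 to 0.23 for Ncstn, -0.18 to 0.93 for Psen2, -0.13 to 0.27 for Adam10, -0.48 to 1.30 for Rbpj and -0.12 to 0.39 for Maml1. Differences between the sorts ranged from -0.35 to 0.89 for Ncstn, -0.45 to 0.62 for Aph1a and -0.23 to 2.25 for Rbpj. Ranks per kb kept their place for 7 to 9 genes. The cause of these changes was not tested. Depth limits Aph1a in macrophages, where a Cre positive library held 1 read.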

Other observations

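Single markers show which other cells the sorts may hold. In HSC libraries, Lyve1, a receptor of sinusoidal endothelium, had 1846, 1679 and 1704 CPM under the Cre positive label and 4262, 2475 and 1703 CPM under the Cre negative label. The first library labelled Cre negative was the highest for Lyve1, and it was also the highest of the 6 for Ncstn, Psen2, Aph1a, Adam10, Adam17 and Numb. It was the highest for Mib1 as well, but only by 33.14 against 33.13 CPM in the first library labelled Cre positive. Stab2, a scavenger receptor of the same cells, had 1058, 982 and 1569 CPM under the Cre positive label and 1270, 1091 and 567 CPM under the Cre negative label, and so did not follow Lyve1. Tek and Oit3, further endothelial markers named after their values were seen, were lower under the Cre positive label without overlap. Tek had 218, 127 and 174 CPM under the Cre positive label and 381, 287 and 272 CPM under the Cre negative label (log2 fold change -0.86, unadjusted edgeR p 0.0105, adjusted p 0.689). Oit3 had 1177, 1046 and 1367 CPM under the Cre positive label and 3398, 1814 and 1376 CPM under the Cre negative label (log2 fold change -0.88, unadjusted edgeR p 0.0276, adjusted p 0.760). Cdh5, the endothelial cadherin, averaged 148 ± 67.4 CPM under the Cre positive label and 118 ± 32.0 CPM under the Cre negative label. Kit, Ly6a and Slamf1, all genes of the sort gate, averaged 110 ± 62.9, 156 ± 32.0 and 42.0 ± 23.0 CPM under the Cre positive label and 125 ± 54.2, 148 ± 17.2 and 33.1 ± 36.0 CPM under the Cre negative label. Siglec1, Adgre1 and Csf1r of macrophages averaged 3.24 ± 4.66, 66.9 ± 44.8 and 110.3 ± 80.1 CPM under the Cre positive label and 2.71 ± 2.00, 106 ± 17.7 and 147 ± 18.3 CPM under the Cre negative label. The part of these cells in the values of the 9 genes was not tested.

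In the macrophage sort, Siglec1, which encodes the sorted antigen CD169, had 16.2, 102 and 67.7 CPM in Cre positive libraries and 18.2, 115 and 117 CPM in Cre negative ones. The first library of each group was low. Csf1r, the receptor for macrophage growth factor, had 114, 81.3 and 689 CPM in Cre positive libraries and 152, 856 and 897 CPM in Cre negative ones, so that 1 Cre positive and 2 Cre negative libraries were high. Stab2 had 3949, 4966 and 4036 CPM in Cre positive libraries and 5121, 2455 and 2598 CPM in Cre negative ones. Stellate markers took 0.00995%, 0.00588% and 0.00231% of reads in Cre positive libraries and 0.136%, 0.0144% and 0.0217% in Cre negative ones, and erythroid markers 0.000154%, 0.00267% and 0.00205% in Cre positive libraries and 0.00295%, 0.00823% and 0.0135% in Cre negative ones. Both lists were lower in every Cre positive library. By mean, 8 of the 10 endothelial markers were higher in Cre positive macrophages and 2 lower (median log2 fold change 0.27). Emcn was lower without overlap, and Tek, named after its values were seen, higher. Tek had 545, 719 and 569 CPM in Cre positive and 512, 442 and 335 CPM in Cre negative macrophages. Its log2 fold change was 0.51 (unadjusted edgeR p 0.109). Its difference between the sorts was 1.34 as labelled (unadjusted edgeR p 0.00465, adjusted p 0.461). The part of these markers in the values of Numb, higher in Cre positive libraries, was not tested. In HSCs the stellate share was 0.0301% to 0.0409% under the Cre positive label and 0.0288% to 0.0717% under the Cre negative label. The stellate genes Lum and Postn, also named after their values were seen, averaged 44.4 ± 24.3 and 40.5 ± 15.9 CPM under the Cre positive label and 126 ± 51.9 and 94.2 ± 34.7 CPM under the Cre negative label, with overlap (log2 fold changes -1.50 and -1.22, unadjusted edgeR p 0.0155 and 0.0217, adjusted p 0.689 and 0.708). The erythroid share was 0.0696% to 0.104% under the Cre positive label and 0.0489% to 0.0939% under the Cre negative label. Hepatoblast markers took 0.177% to 0.211% of HSC reads under the Cre positive label and 0.118% to 0.275% under the Cre negative label.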
